A study of Mus musculus with 675 samples.

Results

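Oxidative phosphorylation is carried out by 5 protein complexes of the mitochondrial inner membrane, and most of their subunits are encoded in the nucleus. The members described here were the protein-coding genes whose symbols name such subunits: Nduf genes of the A, B, C, S and V series for complex I, Sdha to Sdhd for complex II, Uqcr genes for complex III, Cox4 to Cox8 genes for complex IV and Atp5 genes for complex V. Assembly factors, Ndufa4l2 and Cox4i2 were left out. The rule found 82 of the 46517 genes in the table, of which 21547 were protein-coding. They were 36 members of complex I, 4 of complex II, 8 of complex III, 17 of complex IV and 17 of complex V. Ndufa4 stands with complex I by its symbol, although its protein is now assigned to complex IV. The subunit genes Ndufab1 and Cyc1 and the inhibitor gene Atpif1 carry other symbols and were not counted. At least 1 count was found for 80 members, and Cox7b2 and Cox8c had none in any cell. The members held 3165026 counts in all.

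Expression was measured by Smart-seq2, which amplifies full-length cDNA of single sorted cells without molecular identifiers, in 675 cells whose tissue label is aorta. The mice were males of C57BL/6 at an age of 10 weeks. Strain, sex and age were the same throughout, and the labels name no treatment or engineered allele. Pool A gave 367 cells and pool B 308 cells, each from 2 mice on a 384-well plate of its own, so that mice and plate cannot be told apart. The pool was the replicate (n = 2). The extraction protocol speaks of the heart as the dissociated organ, against the tissue label.

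Cells were divided into classes by genes that hold none of the members. Smooth muscle-like cells numbered 552 (295 in pool A and 257 in pool B), fibroblast-like cells 89 (51 and 38) and endothelial-like cells 34 (21 and 13). The median cell held 293115 counts in pool A and 328026 in pool B for smooth muscle-like cells, 163346 and 152934 for fibroblast-like cells, and 235802 and 192763 for endothelial-like cells. All 8 smooth muscle markers exceeded 100 CPM (counts per 1000000 counts of the class and pool) in both smooth muscle-like clusters, and their summed CPM was 25203 and 22454 in pools A and B of this class, 8290 and 10607 in fibroblast-like cells and 7057 and 6765 in endothelial-like cells. The smooth muscle-like class joined cluster 0 (262 and 51 cells) and cluster 1 (33 and 206 cells). Neither cluster had a smooth muscle marker among its 10 leading genes, and those of cluster 1 included the cardiomyocyte markers Tnnt2, Pln and Myh6, so results are also given for each cluster. Myh6 had 0.087 and 26.5 CPM in cluster 1, and only 1 cell, well N20 of pool B, held over 1000 CPM of it (5627). Fibroblast markers summed to 13903 and 13500 CPM in fibroblast-like cells against 1520 and 1600 in smooth muscle-like cells, and endothelial markers to 7080 and 5038 CPM in endothelial-like cells against 84.1 and 74.0. Summed CPM of the 10 cardiomyocyte markers was 89.5 and 293 in smooth muscle-like cells, with Myl2 and Nppa at 0. Among fibroblast-like cells, 13 in pool A and 16 in pool B took another name at a finer or coarser clustering, and their smooth muscle markers summed to 19092 and 18664 CPM. Among endothelial-like cells this held for 7 and 6 cells, with 16275 and 8582 CPM. Results are therefore also given for the cells that took the same name at 3 clustering resolutions, which were 38 and 22 fibroblast-like, 291 and 247 smooth muscle-like and 14 and 7 endothelial-like cells. At the coarsest resolution the largest cluster took a pericyte name from 1 leading gene, Cspg4, and was counted as smooth muscle-like. At the finest resolution (1.0) a cluster of 9 and 13 cells in pools A and B took a cardiomyocyte name. It had 3 cardiomyocyte markers among its 10 leading genes and 6 at 100 CPM or more. Its cells are not among the cells of the same name and were left out of the class comparisons at that resolution.

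The complexes form a chain. Complex I, a large NADH dehydrogenase, and complex II, the succinate dehydrogenase shared with the tricarboxylic acid cycle, pass electrons to ubiquinone. Complex III passes them to cytochrome c, complex IV passes them to oxygen, and complex V uses the proton gradient to make ATP. The mitochondrial genome encodes 13 core proteins of complexes I, III, IV and V, and complex II is wholly nuclear. Several complex IV subunits have a widely expressed isoform and one typical of heart, skeletal muscle or brown fat. Contracting vascular smooth muscle is known to draw ATP from both glycolysis and respiration.

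Promoters of the complex IV isoforms are shown first, since the values below separate each broad isoform from its restricted partner. The windows run from 250 bases before to 20 bases after the RefSeq start (GRCm38.p6), 5′ to 3′ on the gene's strand. Of the last 20 bases, the later ones lie within an annotated transcript, and the first of them were not checked. Capitals mark matches to the motifs searched on both strands: the NRF1 palindrome, the ETS or GABP motif CCGGAAG, the YY1 motif AAGATGGC, the ERR motif TCAAGGTCA, the TATA box TATAAA and the E-box CACGTG. The windows are chr5:115348939-115349208, minus strand, for Cox6a1, chr19:7217597-7217866, minus strand, for Cox8a, chr7:140900427-140900696, minus strand, for Cox8b, chr9:79759834-79760103, minus strand, for Cox7a2, and chr7:30183921-30184190, plus strand, for Cox7a1.
Cox6a1: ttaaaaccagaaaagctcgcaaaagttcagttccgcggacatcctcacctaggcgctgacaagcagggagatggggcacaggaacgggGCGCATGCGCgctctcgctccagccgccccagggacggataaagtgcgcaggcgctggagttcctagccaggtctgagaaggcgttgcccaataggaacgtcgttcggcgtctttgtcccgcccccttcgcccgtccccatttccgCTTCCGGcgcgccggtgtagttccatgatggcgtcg
Cox8a: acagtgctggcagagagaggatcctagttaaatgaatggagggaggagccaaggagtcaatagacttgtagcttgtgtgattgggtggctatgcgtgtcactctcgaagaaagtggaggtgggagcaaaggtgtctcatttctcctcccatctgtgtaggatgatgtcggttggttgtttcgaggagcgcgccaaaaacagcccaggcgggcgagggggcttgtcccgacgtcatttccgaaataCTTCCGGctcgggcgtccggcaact
Cox8b: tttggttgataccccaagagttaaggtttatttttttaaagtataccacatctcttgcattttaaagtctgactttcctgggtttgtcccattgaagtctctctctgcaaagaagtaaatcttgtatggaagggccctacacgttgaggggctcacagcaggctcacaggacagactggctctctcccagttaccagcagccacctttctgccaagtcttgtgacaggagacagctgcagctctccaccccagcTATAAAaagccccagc
Cox7a2: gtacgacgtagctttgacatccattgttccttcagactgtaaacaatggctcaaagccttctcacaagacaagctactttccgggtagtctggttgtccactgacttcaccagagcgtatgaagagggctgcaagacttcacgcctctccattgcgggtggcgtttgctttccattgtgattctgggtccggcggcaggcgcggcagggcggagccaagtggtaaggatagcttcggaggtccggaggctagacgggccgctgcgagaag
Cox7a1: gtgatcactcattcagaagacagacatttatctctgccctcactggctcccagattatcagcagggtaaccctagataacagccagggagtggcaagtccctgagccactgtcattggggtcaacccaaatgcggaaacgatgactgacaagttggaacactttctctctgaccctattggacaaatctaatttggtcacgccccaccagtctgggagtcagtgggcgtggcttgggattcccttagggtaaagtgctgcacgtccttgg
The broadly expressed Cox6a1 held NRF1 and ETS matches, Cox8a held an ETS match, and the restricted Cox8b held a TATA match that begins at base 4 after the listed start. Cox7a2 and Cox7a1 held none of these letters in the window. Of the 82 members, 68 matched a RefSeq promoter. In windows of 300 bases, from 250 before to 50 after the start, the NRF1 palindrome stood in 5 of the 68 members (7.35%) and in 1.07% of the promoters of all 27025 genes. The ETS motif stood in 16 members (23.5% against 9.93%), the YY1 motif in 10 (14.7% against 3.19%) and the ERR motif in 2, Atp5g3 and Sdhd (2.94% against 0.466%). The TATA box stood in 7 members (10.3% against 15.7%) and the E-box in 6 (8.82% against 8.09%). Beside Cox8b the TATA members were Cox7b2, a complex IV member without a count in any cell, and Atp5l, Ndufa3, Ndufa7, Ndufb7 and Ndufs7. The latter are not genes of complex IV. The windows of Cox6a2, Cox6b1 and Cox6b2 are not shown. Motifs can overlap, and a match is a string of letters, not a measured binding site.

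Summed over all members, expression was highest in smooth muscle-like cells in both pools. The sum was 15364 CPM in pool A and 17903 CPM in pool B of smooth muscle-like cells (16634 ± 1796, SD, n = 2). For fibroblast-like cells it was 11850 and 12390 CPM (12120 ± 382), and for endothelial-like cells 13293 and 15672 CPM (14483 ± 1682). The ranges of the smooth muscle-like and the fibroblast-like class did not overlap, whereas pool B of the endothelial-like cells exceeded pool A of the smooth muscle-like cells. Within pools, smooth muscle-like cells held 1.30-fold (A) and 1.44-fold (B) the fibroblast-like sum, a mean log2 ratio of 0.45 ± 0.11 (SD, n = 2), and 1.16-fold and 1.14-fold the endothelial-like sum. Among the 33 and 24 smooth muscle-like cells under 200000 counts, whose depth was nearer to that of the other classes, the ratio to endothelial-like cells was 1.24 in pool A but 0.952 in pool B, so that the direction turned there, and the ratio to fibroblast-like cells was 1.39 and 1.20. With the cells of the same name at 3 resolutions, the ratio to fibroblast-like cells was 1.55 and 1.59 (log2 0.65 ± 0.02). The 29 fibroblast-like cells that changed name held 15487 and 13848 CPM of member counts, between the same-name fibroblast-like cells (9912 and 11245) and, in pool B, the smooth muscle-like sum, and slightly above that sum in pool A. They also held high levels of the pericyte marker Rgs5 (2153 and 1470 CPM). Both smooth muscle-like clusters lay above the fibroblast-like sum, with 15284 and 16321 CPM in cluster 0 and 15895 and 18193 CPM in cluster 1. A sum over members has no test here, and fewer transcripts of the members cannot be told apart from more transcripts of other genes, since CPM is a share of all counts.

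The order of the complexes was alike in the 3 classes, with complex I highest and complex II lowest, and the number of genes summed was also highest and lowest there. In smooth muscle-like cells the complex I members summed to 5726 and 6807 CPM, or 37.6% of all member CPM. Complex V held 4480 and 4913 CPM (28.3%), complex IV 2942 and 3573 CPM (19.6%), complex III 1359 and 1645 CPM (9.01%) and complex II 856 and 966 CPM (5.48%). Complex II of fibroblast-like cells held 458 and 644 CPM, so that smooth muscle-like cells had 1.87-fold (A) and 1.50-fold (B) as much. With the cells of the same name these ratios were 2.72 and 1.99, and with the smooth muscle-like cells under 200000 counts, where complex II held 542 and 732 CPM, they were 1.18 and 1.14. Complex III gave ratios of 1.15 and 1.62 and complex V of 1.32 and 1.55, so that complex II led in pool A and complex III in pool B. Complexes I and IV lay closer, at 1.27 and 1.38 and at 1.26 and 1.36. Against endothelial-like cells the ratio of smooth muscle-like cells was 1.28 in both pools for complex I, but 1.07 and 0.95 for complex IV, which was the complex with a change of direction between pools.

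The 13 proteins encoded by the mitochondrial genome followed another order. They summed to 15528 and 16274 CPM in the fibroblast-like class, 13422 and 11146 CPM (12284 ± 1609) in the smooth muscle-like class and 9614 ± 45 CPM in endothelial-like cells. Fibroblast-like cells, lowest in the nuclear members, were thus highest in the mitochondrial ones. The ratio of mitochondrial to nuclear subunit counts was 1.31 ± 0.002 in fibroblast-like cells, 0.874 and 0.623 in smooth muscle-like cells and 0.669 ± 0.081 in endothelial-like cells. Beside these values, fibroblast-like cells had the fewest counts per cell, and the share of that depth in the ratio was not tested.

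**Figure D1:**
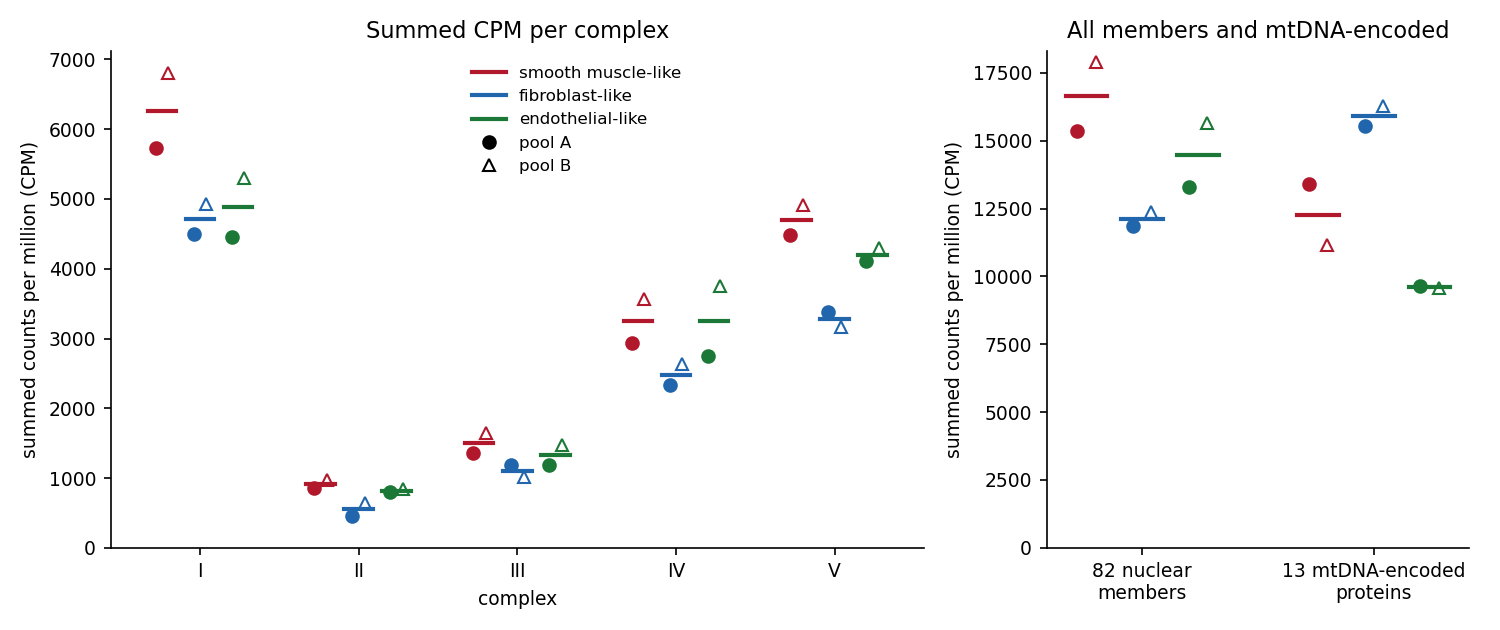
Summed CPM of the members by complex (left) and of all 82 members beside the 13 mitochondrially encoded proteins (right). Points are pools (filled circles A, open triangles B), bars are means of 2 pools and colours are cell classes; the fibroblast-like sum of members (11850 and 12390) lies below the smooth muscle-like sum (15364 and 17903), and these 2 classes are in the opposite order for the mitochondrially encoded proteins.

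Levels of single members were compared per kilobase of merged exons in smooth muscle-like cells. In complex IV, which reduces oxygen to water, the regulatory subunit Cox6a1 stood highest of all members with 593 and 790 CPM per kb in pools A and B. It was followed by Cox8a, one of the smallest subunits, with 558 and 739, and by Cox4i1, a regulatory subunit that binds adenine nucleotides, with 551 and 595. The lowest complex IV member with counts was Cox8b, with a mean of 1.53 CPM per kb. These 3 leading members were all broad isoforms, whose promoters or pairs are shown above and below.

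In complex I the small accessory subunits Ndufa2 (368 CPM per kb, mean of 2 pools), Ndufb9 (363) and Ndufa11 (264) led. The lowest was Ndufs1, the large iron-sulphur subunit of the NADH-oxidising arm, with 10.2. In complex III the small subunits Uqcr10 (255), Uqcr11 (250) and Uqcrh, the hinge protein, (223) led, and the core protein gene Uqcrc2 was lowest (59.3). Per kb of merged exons, small accessory subunits thus led these 2 complexes, with a larger core subunit lowest. Exons of Ndufa2 and Ndufb9 overlap another gene, and the order depended on the length used, as given below. Complex II spanned a narrow range from 112 for the membrane anchor Sdhc over 102 for the iron-sulphur subunit Sdhb and 66.6 for the anchor Sdhd to 57.3 for the flavoprotein Sdha. In complex V subunits of the F1 part led, with Atp5d of the central stalk (223), the catalytic subunit Atp5b (221) and its partner Atp5a1 (212), and Atp5s, a coupling factor, was lowest (4.49). The neighbours Atp5d, Atp5b and Atp5a1 differed by less than the spread between pools of Atp5d (216 and 231).

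The median level was 104 CPM per kb for complex I, 84.4 for complex II, 128 for complex III, 95.7 for complex IV and 111 for complex V. The order of members was shared by the pools (Spearman rho 0.98 across members, which are not replicates). It depended on the length used: with the principal transcript instead of merged exons rho was 0.81, and 5 of the 10 highest members were the same. Between classes the order in CPM was close, with rho 0.94 between the smooth muscle-like and the fibroblast-like class and 0.93 between the former and the endothelial-like class. These correlations describe genes of the same libraries. The 10 members highest in CPM held 32.2% of all member CPM. Exons of 28 members overlap another gene, among them Ndufb9, Ndufa2, Cox4i1 and Atp5a1, and 10 members have close copies elsewhere in the genome, so that single levels of these are uncertain.

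**Figure D2:**
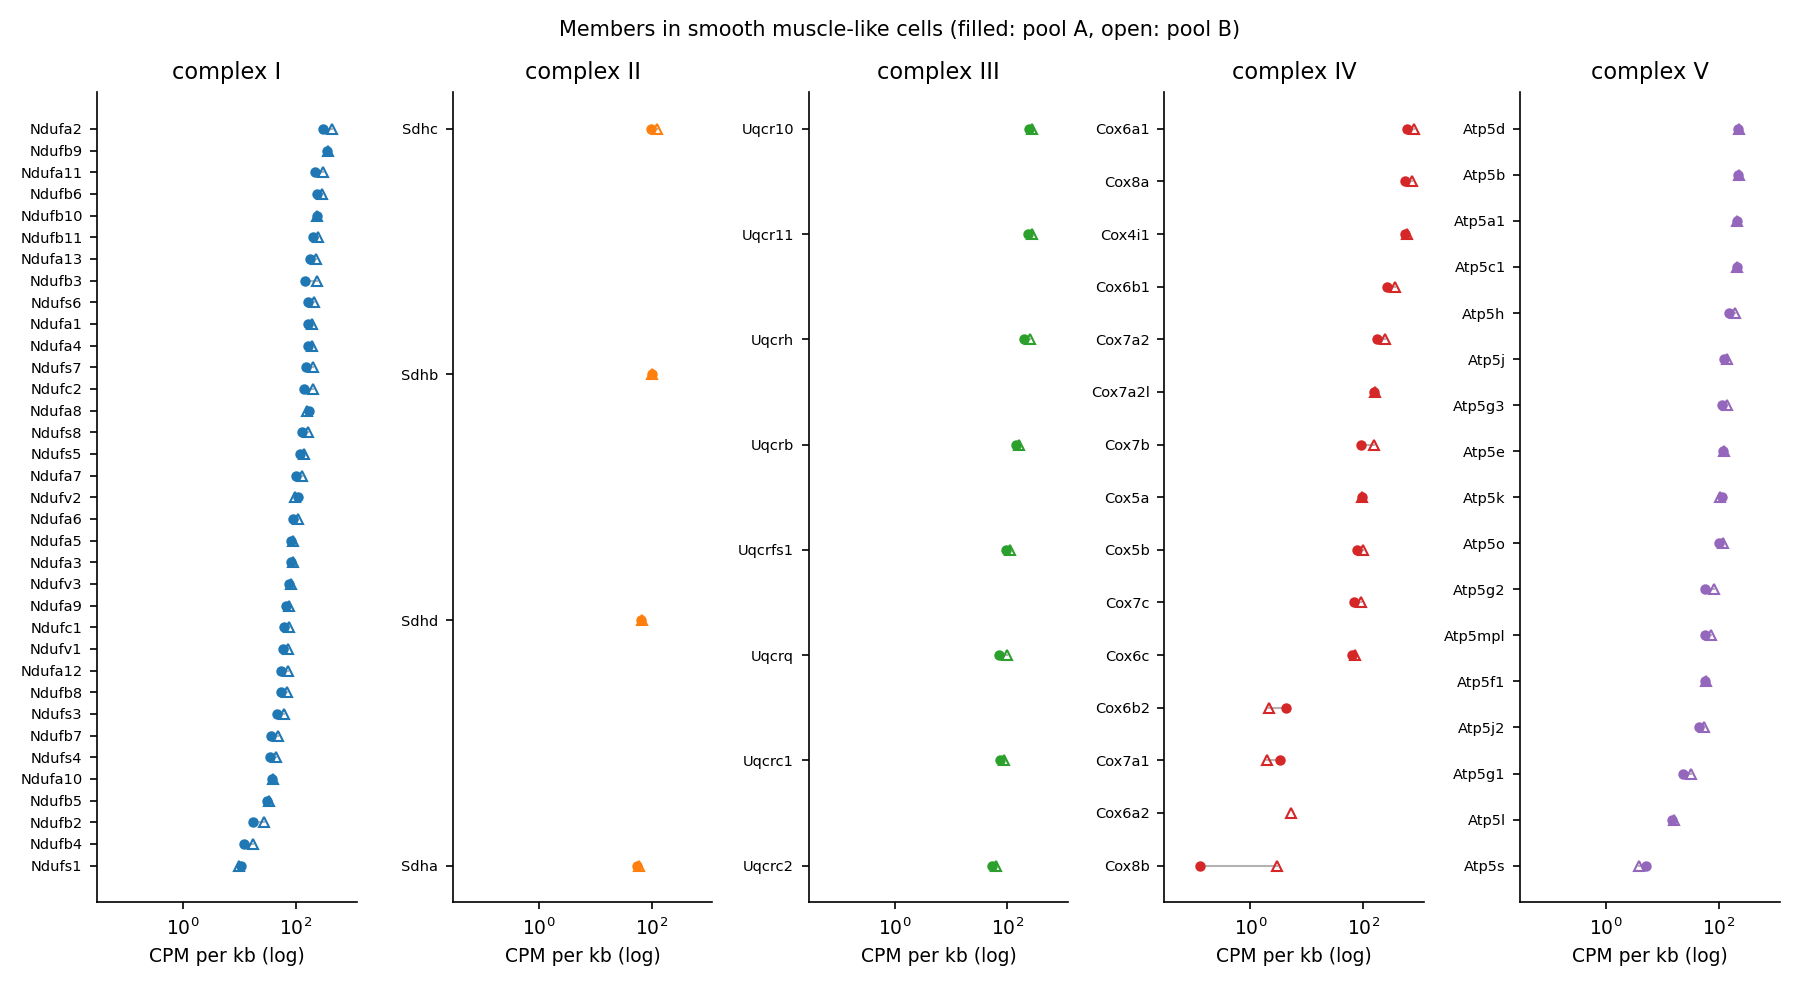
Level of each member in smooth muscle-like cells in CPM per kilobase of merged exons (log axis), by complex, with pool A filled and pool B open. The members Cox6a1, Cox8a and Cox4i1 lie farthest right, and the restricted isoforms Cox6b2, Cox7a1, Cox6a2 (0 in pool A, not drawn) and Cox8b lie at the foot of complex IV; Cox7b2 and Cox8c, with no count, and 1 member not reported here are not shown.

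Smooth muscle-like cells were set against fibroblast-like cells gene by gene, to ask which subunits differ between the muscle and the connective tissue cells of the vessel wall. Among 8527 genes tested with edgeR's quasi-likelihood test with the pool as a block, 197 (2.31%) had an adjusted p under 0.05, and none of the 79 members tested was among them. Cox8b, Cox7b2 and Cox8c were too low to be tested. The unadjusted p was under 0.05 for 14 of the 79 members, all higher in smooth muscle-like cells, which is 17.7% against 16.2% of all genes and near that background. The direction was more uniform than the calls. The log2 difference was above 0 for 73 of 79 members (92.4%) against 56.5% of all genes, with a median of 0.35 against 0.15. In both pools 59 members were higher, against 35.7% of all genes. CPM of the pools did not overlap between the classes for 48 members that were higher (30.5% of all genes) and for 0 that were lower (20.1% of all genes).

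The lowest adjusted p belonged to Atp5b, the catalytic beta subunit of ATP synthase. It had 911 and 961 CPM in pools A and B of smooth muscle-like cells, 474 and 405 in fibroblast-like cells and 997 and 752 in endothelial-like cells. Its log2 difference from fibroblast-like cells was 1.05 (SE 0.18, adjusted p = 0.0576 by edgeR), with no overlap of the pools. The gamma subunit gene Atp5c1, the rotor of the enzyme, had 394 and 400 CPM against 209 and 193 (log2 0.94, SE 0.20, adjusted p = 0.0973 by edgeR). Both subunits of complex V therefore lay about 1 log2 unit apart between the classes without passing the threshold.

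All 4 complex II members were higher in smooth muscle-like cells without overlap of the pools, with a median log2 difference of 0.66. Sdhd, which anchors the complex in the membrane, had 81.4 and 82.7 CPM against 36.4 and 17.2 in fibroblast-like cells (log2 1.66, SE 0.43, adjusted p = 0.157 by edgeR). Sdhc, the other anchor, had 315 and 413 CPM against 180 and 251 (log2 0.72, SE 0.20, adjusted p = 0.185 by edgeR). The anchors are followed by the catalytic pair, which reaches into the matrix. Sdha had 230 and 243 CPM against 111 and 203 (log2 0.61), and Sdhb had 230 and 228 against 131 and 173 (log2 0.56).

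In complex III all 8 members were above 0, with a median of 0.32. The Rieske iron-sulphur protein gene Uqcrfs1 had 131 and 153 CPM in smooth muscle-like cells but 122 and 33.1 in fibroblast-like cells, so that its log2 difference of 1.09 (SE 0.54) came from pool B. The core protein gene Uqcrc1 had 307 and 359 CPM against 214 and 168 (log2 0.76). In complex I 33 of 36 members were above 0, with a median of 0.33. In complex IV this held for 13 of 14 with a median of 0.36, and in complex V for 15 of 17 with a median of 0.27. The members at or below 0 were Ndufc2 (log2 -0.11), Atp5f1 (-0.07), Ndufa5 (-0.05), Ndufb4 (-0.04), Atp5o (-0.003) and Cox6b2 (-1.77, SE 1.50). The pools disagreed most for the low member Atp5s, at log2 -1.30 in pool A and 1.84 in pool B.

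**Figure D3:**
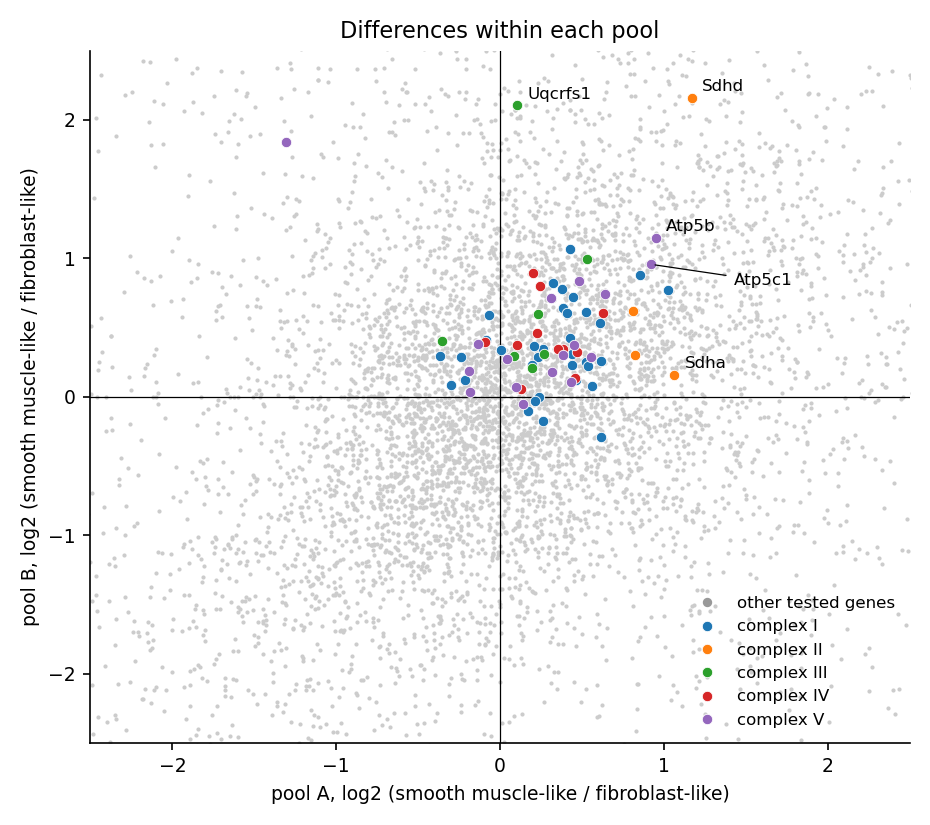
Log2 difference, smooth muscle-like minus fibroblast-like, in pool A (horizontal) and pool B (vertical) for each tested gene, with members coloured by complex. Most members lie in the upper right, with Sdhd, Atp5b and Atp5c1 far out and Uqcrfs1 high in pool B alone; the axes end at 2.5, beyond which lie 3 members (Cox6b2, Cox7a1 and Cox6a2) and 2519 other genes, and 1 member not reported here is not drawn.

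Calls depended on the tool and on which fibroblast-like cells were counted. DESeq2, with its own size factors, called 4 members higher, among them Atp5b, Sdhd and Atp5c1 (adjusted p from 0.00245 to 0.0192), against 6.04% of the genes it gave an adjusted p. Limited to the cells of the same name at 3 resolutions, edgeR called 6 of 78 members higher, against 4.60% of all genes. Among these were Atp5b (log2 1.43, SE 0.25, adjusted p = 3.25e-05), Sdhc (log2 1.55, SE 0.32, adjusted p = 0.000457), Atp5c1 (log2 1.43, SE 0.30, adjusted p = 0.000533), Ndufb8 (log2 1.49, SE 0.41, adjusted p = 0.0108) and Sdhd (log2 2.14, SE 0.64, adjusted p = 0.0236). Each of these log2 differences was larger there than with all cells. The median over all genes was higher there too, at 0.35 in place of 0.15, as was that over members, at 0.56 in place of 0.35. With cluster 0 alone as the smooth muscle-like cells, edgeR called only Atp5b (log2 0.85, SE 0.18, adjusted p = 0.0115), against 2.71% of all genes higher, and with cluster 1 alone again only Atp5b (1.14, SE 0.20, adjusted p = 0.00618), against 2.19%. Without 1 smooth muscle-like cell of pool B that was high in the cardiomyocyte gene Myh6, edgeR also called Atp5b (1.05, SE 0.18, adjusted p = 0.0482), against 0.763% of all genes higher. The median over members was 0.33 for either cluster, against 0.11 and 0.06 over all genes.

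Smooth muscle-like cells were next set against endothelial-like cells. Of 8438 genes, 319 (3.78%) had an adjusted p under 0.05 by edgeR, and none of 79 members did. Cox6a2, Cox7b2 and Cox8c were not tested. The unadjusted p was under 0.05 for 4 members, 3 higher and 1 lower, against 15.1% of all genes. The median log2 difference of the members was 0.35, under the 0.48 of all genes, and 64 of 79 (81.0%) were above 0 against 62.4%. Pools did not overlap for 31 members that were higher (35.3% of all genes) and 7 that were lower (19.4%). The lowest adjusted p belonged to Ndufa11, an accessory subunit of the complex I membrane arm (log2 1.0, SE 0.32, adjusted p = 0.190 by edgeR). DESeq2 called 2 members lower, the isoforms Cox6b2 and Cox8b, against 8.07% of genes. With the cells of the same name edgeR called Cox8b lower (log2 -9.19, SE 2.93, adjusted p = 0.0284), against 3.74% of genes. Cluster 0 or cluster 1 alone gave 0 called members, against 4.66% and 6.26% of genes.

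Fibroblast-like cells were set against endothelial-like cells in the same way. Of 6498 genes, 327 (5.03%) passed by edgeR, with 0 of 78 members. The unadjusted p was under 0.05 for 4 members, all lower in fibroblast-like cells (Atp5b, Ndufb8, Atp5c1 and Cox8b), against 15.3% of all genes. For Atp5b the log2 difference was -0.95 (SE 0.31, adjusted p = 0.0931 by edgeR). Above 0 were 33 of 78 members, with a median of -0.09 against 0.19 over all genes. Pools did not overlap for 11 members that were higher (25.7% of all genes) and 27 that were lower (21.6%), the latter including all 4 complex II members. The complex II sum was 0.577 and 0.761 of the endothelial-like sum, with 794 and 846 CPM in endothelial-like cells. Without the edge wells of the plates endothelial-like cells held 689 and 651 CPM, and the ratio was 0.674 in pool A, while the classes were level in pool B (653 CPM in fibroblast-like cells). DESeq2 called Cox8b lower, against 5.60% of genes, and the cells of the same name gave 0 called members by edgeR, against 4.01%. The comparisons share classes, so they are not independent of each other.

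Genes that build, feed and regulate the complexes were compared from lists chosen with earlier results of these data known. Against fibroblast-like cells, all 18 genes of the tricarboxylic acid cycle were higher in smooth muscle-like cells in the fit, with a median log2 difference of 0.67, 14 of them without overlap of the pools. Over all tested genes 56.5% were above 0 and 30.5% were higher without overlap. Glycolysis genes were above 0 for 18 of 20 (median 0.84), genes of mitochondrial DNA copying and expression for 16 of 19 (1.02), protein import genes for 26 of 30 (0.45), mitochondrial ribosomal proteins for 64 of 78 (0.41) and assembly factors for 33 of 50 (0.41). Antioxidant genes stood at 9 of 14 (0.32). No gene of these lists passed the threshold. Lists without such a lean were fatty acid oxidation, with 12 of 21 above 0 (median 0.01), and the regulators of mitochondrial biogenesis, such as Ppargc1a and Nrf1, with 10 of 20 (-0.03).

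Of 303 list genes tested in that comparison 2 were called (0.660%, against 2.31% of all genes), and both were lower in smooth muscle-like cells. Ndufa4l2, a paralogue of Ndufa4 induced by hypoxia, had 0.41 and 0.58 CPM in the smooth muscle-like class, 114 and 109 in fibroblast-like cells and 98.8 and 387 in endothelial-like cells (log2 -7.87 against fibroblast-like cells, SE 0.49, adjusted p = 0.00559 by edgeR). Ucp2, a carrier of the inner membrane, was lower by log2 -4.43 (SE 0.43, adjusted p = 0.0153 by edgeR), and 17 of 20 carriers and exchangers were nevertheless above 0. The pericyte marker Rgs5 had 492 and 242 CPM in the smooth muscle-like class, 759 and 660 in fibroblast-like cells and 1454 and 1863 in endothelial-like cells. Within the fibroblast-like class it had 15.8 and 23.6 CPM in the same-name cells and 2153 and 1470 in the others. The part of Rgs5-high cells in the Ndufa4l2 level was not tested. The hypoxia list as a whole had 6 of 13 above 0. Cox4i2, the paralogue of Cox4i1 known from lung, had 21.3 and 19.7 CPM in the smooth muscle-like class, 24.3 and 21.6 in fibroblast-like cells and 112 and 146 in endothelial-like cells. Against endothelial-like cells 7 of 302 list genes were called (2.32%, against 3.78% of all genes). The hypoxia factor gene Epas1 was lower by log2 -3.07 (SE 0.25, adjusted p = 0.000938 by edgeR) and the fatty acid uptake gene Cd36 by -9.70 (SE 0.39, adjusted p = 0.000104), while the lactate dehydrogenase gene Ldhb was higher by 2.10 (SE 0.36, adjusted p = 0.0224). Ndufa4l2 (-8.62) and Ucp2 (-6.05) were lower than in endothelial-like cells too, and the antioxidant gene Gpx1 (1.28) and the hypoxia-induced gene Higd1a (2.34) were higher, each called. Fibroblast-like against endothelial-like cells gave Cd36 (-8.47) and Epas1 (-2.78) as the called genes among 287 of the lists (0.697%, against 5.03% of all genes).

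The 2 smooth muscle-like clusters held the members at like levels. Cluster 1 had 1.04-fold (A) and 1.11-fold (B) the sum of cluster 0, with 1.11-fold and 1.20-fold for complex II, and 0.88-fold and 0.75-fold the sum of mitochondrially encoded proteins. Of 8208 genes none (0%) had an adjusted p under 0.05 by edgeR, and 457 (5.57%) had an unadjusted p under 0.05. Among 78 members that unadjusted count was 2, Sdha (log2 0.40, SE 0.16) and Atp5b (0.31, SE 0.11). DESeq2 called 16 genes (0.226%) and 0 members. Above 0 were 61 of 78 members, with a median of 0.10 against -0.03 over all genes. Without edge wells the median over members was 0.02 and the ratio of sums 0.996 (A) and 1.10 (B). Well P1 alone, 1 of the 33 cells of cluster 1 in pool A, carried the excess there, since the ratio was 0.997 without it. Pools did not overlap for 18 members that were higher (16.8% of all genes) and 1 that was lower (16.6%). Cluster 1 lies mostly in pool B, so the cluster and the pool are only partly separate.

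Among paralogue pairs of complex IV the broad isoform held most counts in each class, and the partner was found in few cells. Cox8b, the isoform of heart, skeletal muscle and brown fat, had 221 counts in 17 cells, 9 of them endothelial-like, 8 smooth muscle-like and 0 fibroblast-like. In endothelial-like cells it reached 22.7 and 8.67 CPM, which was 5.05% (95% exact Clopper-Pearson interval 4.14 to 6.09) and 1.71% (1.10 to 2.53) of the counts of Cox8a and Cox8b together. In smooth muscle-like cells it had 0.046 and 1.06 CPM, and 86 of the 90 counts in pool B came from well N20. Fibroblast-like cells had 0 counts, so that endothelial-like cells were at least 76.2-fold (A) and 17.3-fold (B) higher, against a floor of 3 counts per pool (0.298 and 0.502 CPM). Well N12 held 52 of the 103 endothelial-like counts in pool A and well L17 held 14 of the 24 in pool B. Without these cells the bounds were 40.2-fold and 7.73-fold and the shares 2.76% and 0.759%. Both shares lie below the intervals above, which reflect counting error alone and not the spread between cells or pools. Of the 9 endothelial-like cells with Cox8b, 4 also held counts of the brown fat gene Ucp1, which had 39.5 and 52.0 CPM in this class. The part of brown fat RNA in the Cox8b level was not tested.

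Cox6b2, known from testis, had 1113 counts in 61 cells, 47 of them smooth muscle-like, 10 fibroblast-like and 4 endothelial-like. Its level was 4.71 and 2.41 CPM in the smooth muscle-like class, 4.08 and 30.0 in fibroblast-like cells and 30.9 and 49.1 in endothelial-like cells. Its share of Cox6b1 and Cox6b2 counts was 13.3% and 14.3% in endothelial-like cells, 2.42% and 0.910% in smooth muscle-like cells and 2.28% and 11.3% in fibroblast-like cells, where the pools thus disagreed. The endothelial-like values rest on 4 cells. Well K6 held 122 of the 140 counts in pool A, and without it the share was 2.05% and the level 4.35 CPM, near those of smooth muscle-like cells. Without well H1, which held 90 of 136 counts, the share in pool B was 6.59%. In fibroblast-like cells of pool B it was 5.44% without well F10, which held 101 of 179 counts. Cox7a1, the heart and skeletal muscle partner of Cox7a2, had 249 counts in 20 cells, 19 of them smooth muscle-like. Smooth muscle-like cells had 1.81 and 1.05 CPM and fibroblast-like cells 0 counts, which makes the former at least 6.06-fold (A) and 2.08-fold (B) higher against the floor of 3 counts per pool. In pool A 103 of the 158 counts came from well A23, and without it the bound was 2.12-fold. In pool B it was 1.53-fold without well N20. Cox6a2, the heart and skeletal muscle partner of Cox6a1, was found in 12 cells of pool B, with 288 of its 302 counts in well N20 and at most 2 counts in each of the other 11, all of which lay in the same plate row or column as that well.

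Well N20 was classed as smooth muscle-like but held 5627 CPM of Myh6, 3908 of Tnnt2 and 3301 of Pln, which are cardiomyocyte genes, and 87.9 CPM of Myh11. Its members summed to 42214 CPM, with 288 counts of Cox6a2, 86 of Cox8b and 24 of Cox7a1. Myh6 was found in 37 cells of pool B, and 36 of them shared row N or column 20. Without this well the members' sum in pool B of the smooth muscle-like cells was 17809 CPM in place of 17903, so the class sums did not rest on it.

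The complex V c ring, the rotor in the membrane, is built from 1 mature protein encoded by 3 genes. Per kilobase, Atp5g3 held 55.0% to 60.6% of their sum over the 6 combinations of class and pool, Atp5g2 26.5% to 33.7% and Atp5g1 7.33% to 12.9%. The ranges of the 3 genes did not overlap, and their order was the same in every class and pool.

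**Figure D4:**
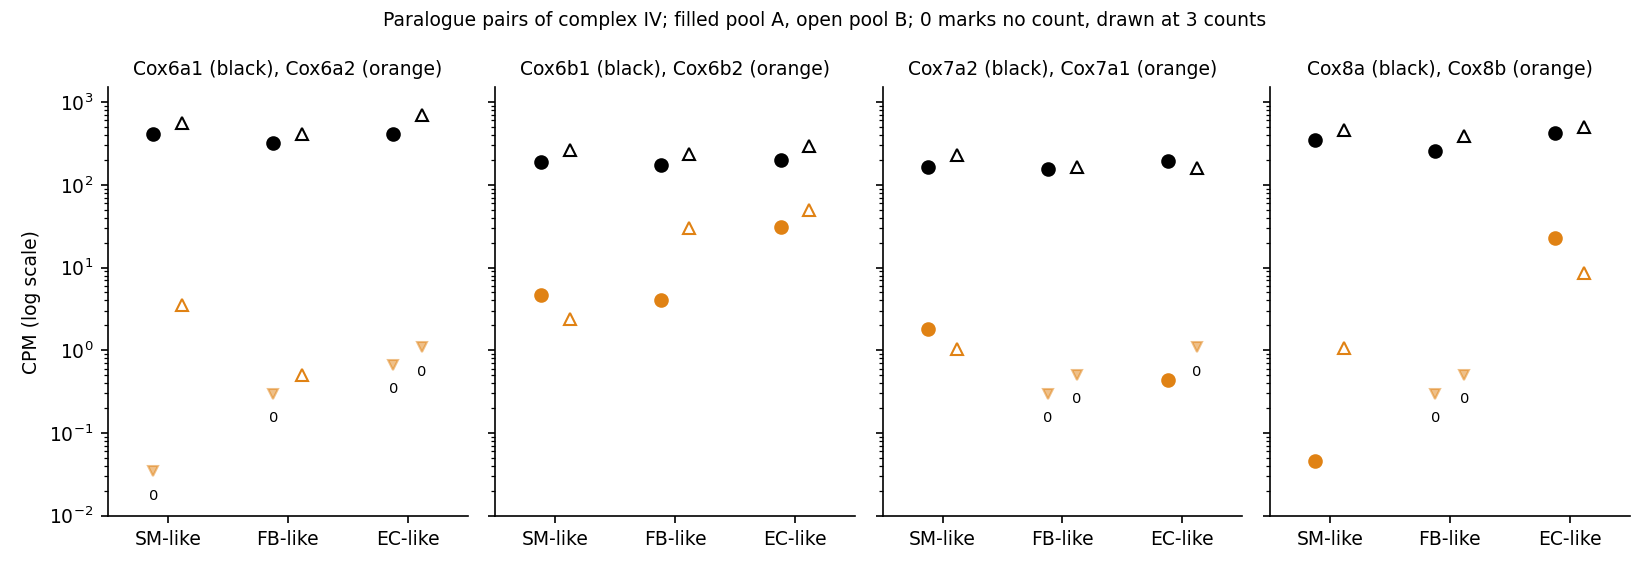
CPM on a log axis of 4 paralogue pairs of complex IV by cell class, with the broad isoform in black, its partner in orange, pool A filled and pool B open. The broad isoforms lie between 154 and 703 CPM in every class and pool, whereas the partners reach at most 49.1 CPM; a 0 marks a class and pool without counts, drawn at the level of 3 counts.

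Pool B exceeded pool A in smooth muscle-like cells by 1.17-fold in the members' sum. The ratio was 1.19 for complex I, 1.13 for complex II, 1.21 for complexes III and IV and 1.10 for complex V, so that all 5 complexes were higher in pool B. Of 75 members with at least 10 CPM in both pools, 68 were higher in pool B (90.7%) against 50.2% of such genes, and 28 were more than 1.25-fold higher (37.3%) against 19.9%. None of the 75 was more than 1.25-fold lower, against 24.4% of such genes. The widest difference was that of Cox7b, a complex IV subunit, at 109 and 186 CPM, followed by Ndufb3 at 112 and 180. Summed ribosomal protein genes were 1.21-fold higher in pool B too, and the mitochondrially encoded proteins were at 0.83-fold. In fibroblast-like cells the sum was 1.05-fold and 43 of 75 members were higher in pool B (46.2% of genes), and in endothelial-like cells it was 1.18-fold with 49 of 76 (49.6% of genes). Among smooth muscle-like cells under 200000 counts (33 and 24 cells) the order turned, with 16498 CPM in pool A and 14920 in pool B. With 1 pool on each side the difference has no replicate check.

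In smooth muscle-like cells the median cell held 14920 CPM in pool A and 17372 in pool B, and the middle 80% of cells spanned 12259 to 18907 and 13684 to 22343 CPM. The coefficient of variation was 27.5% and 21.8%, which includes counting error and depth. In pool A it was 19.6% in cluster 0 and 56.3% in cluster 1, which holds well P1 with 68595 CPM. In pool B it was 25.7% in cluster 0 and 20.1% in cluster 1. The median fibroblast-like cell held 11165 and 11123 CPM and the median endothelial-like cell 12322 and 15039 CPM, so that the order of class medians was that of the sums. A median of 70 and 74 members had a count in a smooth muscle-like cell, and 58 and 64 after each cell was thinned to 20000 counts. After thinning, Cox4i1 was found in 99.8% of smooth muscle-like cells, Cox6a1 in 98.9% and Atp5b in 98.4%. Cox6a2 and Cox8b were each found in 0.195% and Cox7a1 in 1.09%, the lowest of the members with any count.

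Across smooth muscle-like cells the share of members had Spearman rho 0.56 (A) and 0.60 (B) with the share of ribosomal protein genes, 0.15 and 0.08 with mitochondrially encoded proteins, 0.04 and 0.20 with the total count and -0.07 and -0.02 with the number of genes. These are descriptions over cells of 1 library each, and shares of 1 total are linked by construction. In fibroblast-like cells rho with the total count was 0.41 and 0.71, so that depth moved with the members there. Between complexes Pearson's r over smooth muscle-like cells was 0.53 and 0.79 for complexes I and IV, 0.54 and 0.72 for I and V, and 0.002 and 0.26 for II and III. Each r of complex II with another complex was below every r between 2 other complexes in the same pool, and complex II has 4 genes and the fewest counts.

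By plate position, row P of pool B stood apart. Its 14 smooth muscle-like cells had a median of 23885 CPM, while the other rows of that plate had medians of 15934 to 18795 and those of pool A 13194 to 18009. Ribosomal protein genes in row P had a median of 33346 CPM against 25839 to 31212 in the other rows. Well P1 of pool A held the highest value of all, 68595 CPM in 3042 genes, with 33614 CPM in complex I, 1066 in complex II and 72579 in ribosomal protein genes. Well C1 of pool A held 34779 CPM. Without the edge wells (rows A and P, columns 1 and 24) the smooth muscle-like sum was 15105 CPM in pool A and 17519 in pool B, so the pool difference had the same direction.

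**Figure D5:**
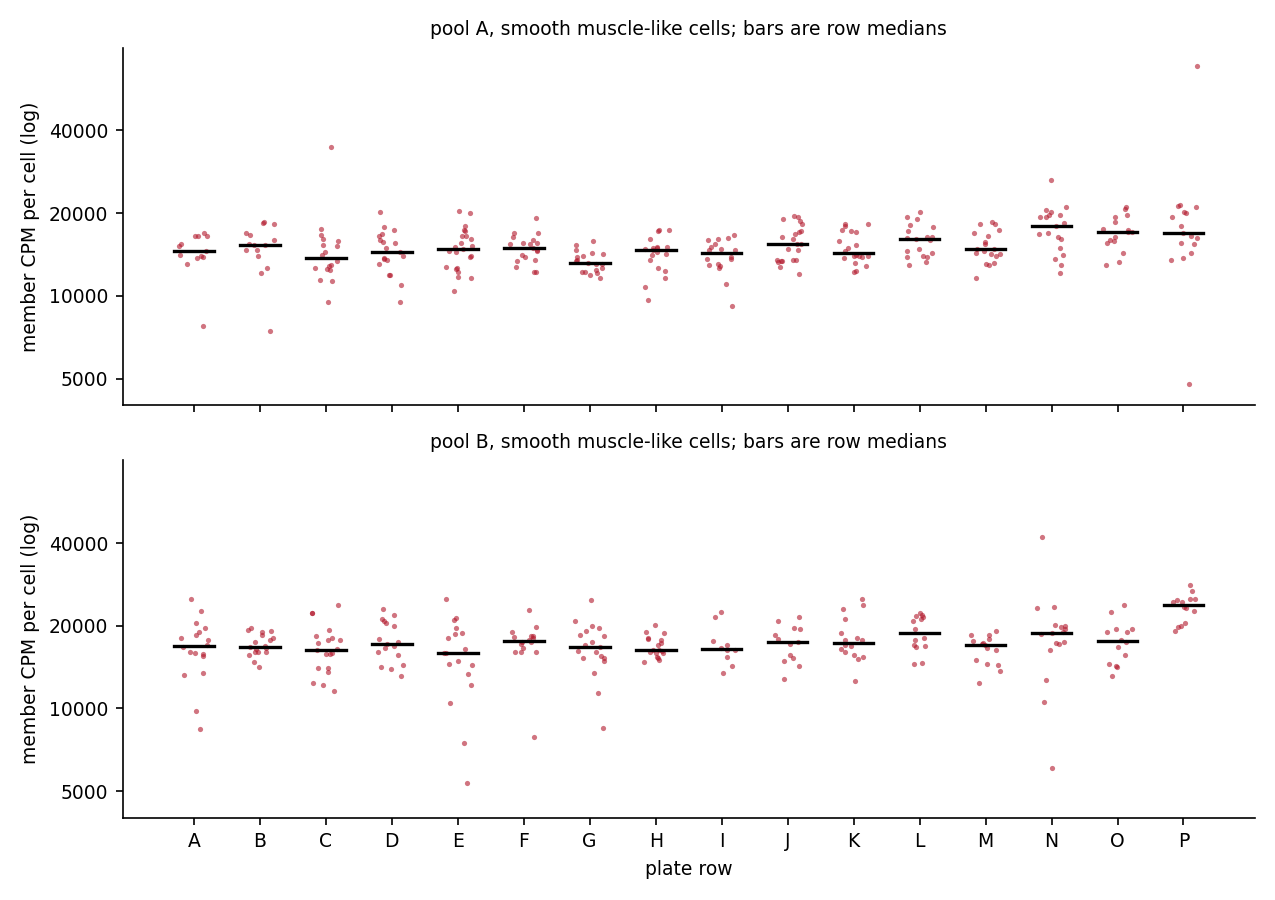
Summed member CPM of each smooth muscle-like cell (log axis) by plate row, pool A above and pool B below, with bars at row medians. Row P of pool B has a median of 23885 against 15934 to 18795 in the other rows of that plate, and single wells in row P of pool A and row N of pool B lie far above the rest.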

How the data were processed

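The authors deposited counts, all whole numbers, of 46517 genes in 675 cells, and 0 columns lay outside the labelled cells. The tools featureCounts, Subread, Bowtie, Bowtie2 and bcl2fastq and the build GRCm38 (mm10) are listed, per the submitters' processing notes, and the sources used here do not give versions, the strand setting or the treatment of duplicate reads. Symbols, exons and copies came from GENCODE M21; 0.217% of the counts fell on 512 identifiers that have no symbol. The members and the lists were chosen with earlier results of these data known.

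Genes were split into 23332 for clustering, which hold the markers, 23148 for testing, which hold all members and lists, and 37 mitochondrial ones in neither. Clustering and testing used the same cells, so the tests are not independent of the clustering despite this split. From the 2000 most variable of the former, 20 principal components with 15 neighbours were clustered by Leiden at resolution 0.5, with 0.25 and 1.0 as alternatives, in scanpy 1.11.5 with leidenalg 0.10.2 and anndata 0.12.19. Python 3.11.15 was used with pandas 2.3.3, scipy 1.17.1 and numpy 2.4.6. A cluster took a name, with the ending -like, from a cell type with at least 3 markers at 100 CPM. No doublet caller was run.

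Counts were summed per pool and class and tested by edgeR's quasi-likelihood F test (version 4.0.16, R 4.3.3). The fit used genes kept by filterByExpr, TMM factors and the pool as a block, which left 1 residual degree of freedom, with Benjamini-Hochberg adjusted p-values over all tested genes and a threshold of 0.05. CPM per kb used merged exon length. Mice and plate are common to the classes of a pool. As a check of this pairing, the pool differences of the classes correlated across 5670 genes with r = 0.253 (smooth muscle-like and fibroblast-like), 0.278 (smooth muscle-like and endothelial-like) and 0.109 (fibroblast-like and endothelial-like). On simulated counts the fit called 90.8% of genes changed 2-fold in the comparison of the smooth muscle-like with the fibroblast-like class (8995 genes), 85.1% with the endothelial-like class (8902 genes) and 90% for the fibroblast-like with the endothelial-like class (7021 genes). In that simulation every gene had the same dispersion, no pool effect was added, and only genes above a set CPM were changed. These rates therefore do not give the share of real 2-fold changes that the fit would call. DESeq2 1.42.0, other filters, scalings, cell choices and clusterings were tried as alternatives.

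Named members are those called, the 3 highest and the lowest per kb in each complex, the paralogue sets, the 3 most and least often found after thinning and, of each companion list, the called genes with the largest change; others were singled out after their values were seen. The values of 1 member, which counts over the members include, are not reported here. Intervals are 95.0% exact Clopper-Pearson, and a count of 0 was set at a floor of 3 counts; these reflect counting error alone, as PCR copies cannot be told from separate molecules without identifiers. Figures were drawn with matplotlib 3.10.9.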

Additional observations from a re-analysis of the deposited data

How the results depend on the processing

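Against the fibroblast-like class, edgeR called 0 members in smooth muscle-like cells in the reported fit, beside 197 of 8527 genes (2.31%). DESeq2 called 4, beside 6.04% of genes higher. Without a filter on low counts the count of members was 5, beside 567 genes in all, and with equal cell weights 2, beside 409. At clustering resolution 0.25 it was 1, beside 406, and at 1.0 it was 6, beside 659. It was 1 without mitochondrial and rRNA genes, for which the calls over all genes are not given here. Alternatives chosen after the data were seen gave 6 with the cells of the same name at 3 resolutions (4.60% of all genes higher). They gave 1 each without the cell high in Myh6 (0.763%), with cluster 0 alone (2.71%) and with cluster 1 alone (2.19%). The count of members was 0 with median-of-ratios factors, with no replicate block, in the deeper cells, in smooth muscle-like cells under 200000 counts and without edge wells. No replicate block gave 0 called members in every comparison. Against endothelial-like cells DESeq2 called 2 members lower (8.07% of genes) and the cells of the same name gave 1 lower (3.74%). For the fibroblast-like against the endothelial-like class DESeq2 called 1 lower (5.60% of genes). Median-of-ratios factors gave 1 there, for which the calls over all genes are not given here. Calls over all genes thus moved as well, and with no replicate block smooth muscle-like minus fibroblast-like gave 136. Where only a total over all genes is given, the number of tested genes is not, so the member counts cannot be set against a share there. Smooth muscle-like minus endothelial-like gave 319 and, with no replicate block, 169, and fibroblast-like minus endothelial-like 327 and 105. The cause of these moves was not tested.

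Without members that share exon bases or have a copy, the sums fell to 9593 CPM in smooth muscle-like, 6873 in fibroblast-like and 8450 in endothelial-like cells, since fewer members were summed. The fibroblast-like sum was 11082 as a mean of per-cell CPM, 12671 in the deeper cells (at least 2000 genes and 100000 counts) and 10578 in the cells of the same name. The log2 ratio of smooth muscle-like to fibroblast-like sums was 0.57 per cell and 0.65 in the cells of the same name. The ratio to endothelial-like cells (0.20) was 0.25 per cell, 0.18 in the deeper cells, 0.18 without shared members, 0.18 without edge wells, 0.22 in the cells of the same name and 0.12 in cells under 200000 counts, and the fibroblast-like to endothelial-like ratio was -0.43 in the cells of the same name. The pool difference of smooth muscle-like cells (log2 0.22) was 0.19 per cell, 0.23 with TMM scaling, 0.25 without shared members, 0.21 without the Myh6 cell, 0.21 without edge wells and 0.21 in the cells of the same name, and it turned to -0.15 in cells under 200000 counts. The coefficient of variation was 24.6% over the pools and 18.5% without edge wells, and members with a count went from 61 to 67.5 when thinned to 50000 counts and to 72 without thinning.

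Leaving out either pool gave sums of 15364 to 17903 CPM in smooth muscle-like, 11850 to 12390 in fibroblast-like and 13293 to 15672 in endothelial-like cells. The log2 ratios were then 0.37 to 0.53 for smooth muscle-like to fibroblast-like, 0.19 to 0.21 for smooth muscle-like to endothelial-like and -0.34 to -0.17 for fibroblast-like to endothelial-like cells, with a coefficient of variation of 21.8% to 27.5% and 58 to 64 members with a count. With 1 pool left no test could be made. In all, 124 values under an alternative moved and 254 did not, with the 1 reversal above; of the counts of calls, summed values and their ratios given here, 38 moved and 92 did not.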
